A study of Mus musculus with 8 samples.

Results

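The 3 genes described here, Col5a1, Col5a2 and Col5a3, encode the α1, α2 and α3 chains of type V collagen, and they are 3 of the 19224 genes measured in single neurons of the mouse stellate ganglia. They were taken by name, as the gene family to which Col5a3 belongs, and Col5a3 had been selected on its levels in the neuronal subtypes of these same data. Levels by subtype are therefore given as a description and were not tested. The neurons came from C57BL/6J mice of 8 to 10 weeks of age, which had received adeno-associated viruses, with GFP given to the heart and tdTomato given to the front paws. All mice shared this treatment and no other condition was compared. The authors sorted 1303 cells classed as neurons into 8 subtypes, of which NA1a (316 neurons), NA1b (311), NA1c (239), NA2 (175) and NA3 (99) carry the label for noradrenergic, Ach1 (64) and Ach2 (62) that for cholinergic and Glut (37) that for glutamatergic neurons.

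Type V collagen is a minor fibrillar collagen, built as a triple helix of chains, that is buried in fibrils of type I collagen and starts and limits their growth. Its common form holds α1 and α2 chains and is made by fibroblasts and other cells of connective tissue. The α3 chain, the product of Col5a3, occurs together with the other chains in a rarer form and is known from fewer tissues, and Schwann cells of peripheral nerve also make an α3 chain of this type that binds heparan sulfate proteoglycans. Stellate ganglia are sympathetic ganglia at the base of the neck that send axons to the heart and the forelimbs.

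In build GRCm38, Col5a2 lies on the minus strand at chr1:45374321-45503282, Col5a1 on the plus strand at chr2:27886425-28039514 and Col5a3 on the minus strand at chr9:20770050-20815067, so the genes of the 3 chains are on different chromosomes. The 250 bases upstream of the RefSeq start sites of Col5a1 and Col5a3 (GRCm38.p6, chr2:27886175-27886424 on the plus strand and chr9:20815068-20815317 on the minus strand) are given here because the α1 chain was found in few neurons and the α3 chain in most of them. Capitals mark matches to the GC box (GGGCGG) and the CCAAT box (CCAAT), searched on both strands, which do not overlap each other.

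Col5a1: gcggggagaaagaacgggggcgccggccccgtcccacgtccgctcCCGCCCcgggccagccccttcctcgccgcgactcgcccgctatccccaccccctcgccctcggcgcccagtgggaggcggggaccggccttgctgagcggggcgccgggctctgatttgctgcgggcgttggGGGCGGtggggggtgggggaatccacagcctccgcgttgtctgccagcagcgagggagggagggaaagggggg

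Col5a3: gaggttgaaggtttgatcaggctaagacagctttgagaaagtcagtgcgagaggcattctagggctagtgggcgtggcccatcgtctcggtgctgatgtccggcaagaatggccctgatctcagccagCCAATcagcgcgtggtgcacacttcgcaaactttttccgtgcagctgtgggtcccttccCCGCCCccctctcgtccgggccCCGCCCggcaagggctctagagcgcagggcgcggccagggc

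Both stretches held 2 GC boxes, and the Col5a3 stretch alone held a CCAAT box. Neither held the TATA box (TATAAA). Of 32851 mouse promoters cut to the same length, 32.7% held a GC box, 33.8% a CCAAT box and 12.4% a TATA box. The share of G and C was 76.4% upstream of Col5a1 and 62.8% upstream of Col5a3, against a median of 52.4% over all promoters. These are matches of letters, which were not tested for binding. Col5a2 had no entry in the promoter table.

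Values over mice rest on the 5 mice, numbered 1 to 5 by their replicate, whose names matched 1 sample each, with 1002 neurons and 916296 to 1196621 unique molecular identifiers (UMIs, 1 per captured RNA molecule) per mouse. The 301 neurons of the other 3 mice entered only pooled values. Levels are means of UMIs per 10000 UMIs over the neurons of a mouse, for subtypes with at least 10 neurons in that mouse. UMIs are read at the 3′ end of a transcript, so levels were not divided by gene length. In all, 21 cell barcodes occurred in more than 1 mouse, which put 73 neurons in doubt, 55 of them in NA2, 15 in Ach2 and 3 in Glut and none in NA1a, NA1b, NA1c, NA3 or Ach1. All 1303 neurons had a UMI of at least 1 of 6 neuron markers. Among these markers are Snap25, Syt1, Pcsk1n and Prph, by which the authors had classed the cells as neurons. Pooled, the 6 markers summed to 48.1 UMIs per 10000 in NA3, the lowest of the subtypes, and to 91.4 in Ach1. The subtypes differed in depth, with a pooled median of 2206.5 UMIs per neuron in Ach1 and 6773 in NA3.

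Col5a3 was by far the most abundant chain. It was found in 979 of 1303 neurons, or 75.1% (exact 95% Clopper-Pearson interval 72.7 to 77.5%), with 8728 UMIs in all and up to 107 in 1 neuron of Ach2. Col5a2 was found in 64 neurons, or 4.91% (3.80 to 6.23%), with 87 UMIs, and 49 of these neurons had a single UMI. Col5a1 was found in 36 neurons, or 2.76% (1.94 to 3.80%), with 40 UMIs, and 32 of these neurons had a single UMI. The intervals cover counting error only.

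Col5a3 was highest in NA1b, the subtype with the lowest Npy (neuropeptide Y) of the NA1 subtypes. In NA1b the level of Col5a3 was 28.7, 40.7, 41.2, 31.5 and 28.8 UMIs per 10000 in mice 1 to 5, a mean of 34.2 ± 6.29 (SD, n = 5). In NA1c it was 10.0, 12.7, 13.1, 14.3 and 12.7, a mean of 12.5 ± 1.55 (SD, n = 5). In NA1a it was 6.88, 5.42, 9.56, 7.93 and 5.52, a mean of 7.06 ± 1.74 (SD, n = 5). The 3 NA1 subtypes did not overlap between mice: the lowest NA1b value was above the highest NA1c value, and the lowest NA1c value was above the highest NA1a value. Within mice, NA1b was above NA1a by 5.03-fold ± 1.47 (SD, n = 5, range 3.97 to 7.51) and above NA1c by 2.74-fold ± 0.475, and NA1c was above NA1a by 1.85-fold ± 0.458, in 5 of 5 mice each time.

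NA2 lay at the other end. Its level of Col5a3 was 0.378, 0.397, 0.552, 0.272 and 0.886 UMIs per 10000, a mean of 0.497 ± 0.240 (SD, n = 5), and NA1b was 80.2-fold ± 32.0 above it. Every NA2 value was below every value of the NA1 subtypes. Without the neurons that share a barcode the mean over mice was 0.345. Glut, with too few neurons in any mouse, had a pooled level of 0.211, all of it from 1 of 37 neurons with 8 UMIs.

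The remaining subtypes lay between and could be read in fewer mice. NA3 had 4.03 in mouse 2, 16.6 in mouse 4 and 7.32 in mouse 5, a mean of 9.32 ± 6.53 (SD, n = 3). Ach2 had 6.07 in mouse 1 and 12.3 in mouse 4, a mean of 9.18 ± 4.40 (SD, n = 2), and Ach1 had 3.99 in mouse 4. By mean the order was NA1b, NA1c, NA3, Ach2, NA1a, Ach1 and NA2. NA1c, NA3 and Ach2 overlapped, as did NA3, Ach2 and NA1a, so these neighbours did not differ beyond their spread, whereas NA1b and NA2 stood clear of every other subtype that had a value per mouse. Ach1 had a value in 1 mouse and no spread. Ach2 holds 15 neurons with a shared barcode, of which none had a Col5a3 UMI, against 37 of the other 47, and its pooled level was 9.03 with and 11.9 without them.

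**Figure D1:**
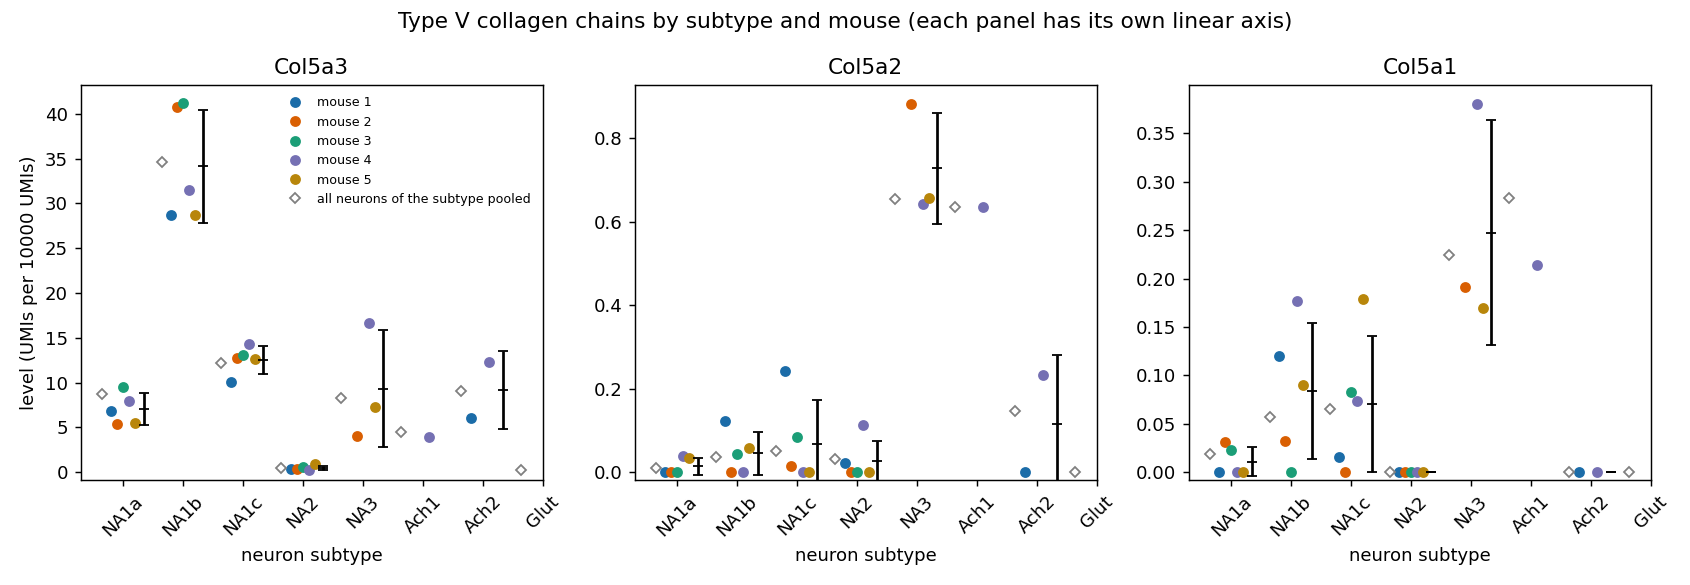
Level of each type V collagen chain (UMIs per 10000 UMIs, a linear axis of its own in each panel) in each neuronal subtype, with 1 point per mouse and subtype with at least 10 neurons, a black bar for the mean ± SD over mice and a grey diamond for all neurons of the subtype pooled. Col5a3 in NA1b sits at a mean of 34.2 and in NA2 at 0.497, while Col5a1 and Col5a2 have their highest values in NA3 and Ach1.

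Neurons of the 3 mice outside this comparison also had Col5a3. The names of these 3 mice could not be matched to 1 sample each, so their batch is not certain. The 5 matched mice are of batch 2, and the 3 samples left without matched neurons are of batch 1. Pooled over their neurons, Col5a3 was 31.6 UMIs per 10000 in NA1b (74 neurons), 10.6 in NA1a, 10.1 in NA1c and 0.692 in NA2. In these neurons NA1a was slightly above NA1c, the reverse of the order in the 5 matched mice. Their NA1a level was also above the highest matched mouse (9.56). Over all neurons NA1b held 55.3% of the Col5a3 UMIs with 23.9% of the neurons and 22.8% of all UMIs. The median NA1b neuron had 30.97 UMIs of Col5a3 per 10000 (quartiles 17.8 and 46.2, highest 149.6), against 9.12 in NA1c and 6.65 in NA1a.

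Most neurons of the NA1 subtypes had the transcript. A UMI of Col5a3 was found in 95.8% of NA1b, 92.1% of NA1a and 87.4% of NA1c neurons. After each neuron was thinned to 2000 UMIs the shares were 96.0%, 68.5% and 81.3%, so that the order of NA1a and NA1c turned when depth was made equal. In NA3 the share was 89.9%, and 60.0% after thinning. In NA2 it was 12% and 6.45%, and in Glut 2.70% and 3.45%. The shares in NA2 and Glut, at pooled median depths of 2461 and 3285 UMIs, were the lowest. The shares in the other 6 subtypes, of which Ach1 had the lowest at 51.6%, lay above them. Over mice the NA2 share ran from 4.65% in mouse 4 to 35.3% in mouse 5. RNA free in the droplets was not measured, and its part in the low shares was not tested.

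**Figure D2:**
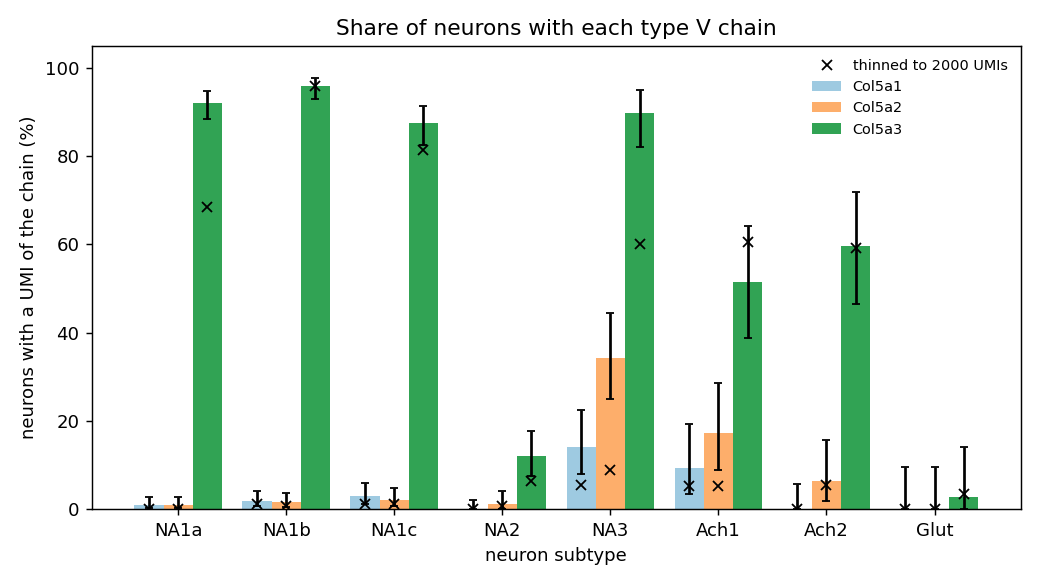
Share of neurons (%) with at least 1 UMI of each chain in each subtype, pooled over all neurons (bars, with exact 95% intervals) and after thinning each neuron to 2000 UMIs (crosses). Col5a3 stays at 96.0% in NA1b after thinning, whereas Col5a2 falls from 34.3% to 8.89% in NA3.

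The α1 and α2 chains had another distribution. Col5a2 was at 0.881, 0.643 and 0.658 UMIs per 10000 in NA3 of mice 2, 4 and 5, a mean of 0.727 ± 0.133 (SD, n = 3), and at 0.636 in Ach1 of mouse 4. Col5a1 was at 0.191, 0.381 and 0.170 in NA3 of the same mice, a mean of 0.247 ± 0.116 (SD, n = 3), and at 0.214 in Ach1 of mouse 4. Means over mice in NA1b were 0.0842 for Col5a1 and 0.0451 for Col5a2, so the subtype with the most Col5a3 had little of either. NA3 and Ach1 together held 45 of the 64 neurons with Col5a2 (70.3%) and 20 of the 36 with Col5a1 (55.6%).

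Much of this signal sat near the limit of detection. Col5a2 was found in 34.3% of NA3 neurons and 17.2% of Ach1 neurons, and in 8.89% and 5.26% after thinning to 2000 UMIs. Col5a1 was found in 14.1% and 9.38%, and in 5.56% and 5.26% after thinning. No UMI of Col5a1 was found in 175 NA2, 62 Ach2 or 37 Glut neurons, which allows shares of up to 1.71%, 4.84% and 8.11%. No UMI of Col5a2 was found in Glut, with the same limit. Neurons with Col5a2 had a median of 8265.5 UMIs and those without it 3497, while for Col5a1 the medians were 6267 and 3609.

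NA3 and Ach1 were also the subtypes with the most RNA of markers of other cell types. The summed level of 10 fibroblast markers was 49.3 UMIs per 10000 in Ach1 and 16.3 in NA3 (11.9 to 32.9 over mice), and at most 2.20 in the other 6 subtypes. The summed level of 10 satellite glia markers was 271 in NA3 (189 to 353 over mice) and 110 in Ach1, and at most 14.1 elsewhere. Dcn, which encodes the fibroblast proteoglycan decorin, stood at 38.6 in Ach1 and 11.99 in NA3, and Apoe, a satellite glia marker, at 76.2 and 165. The part of RNA from these cells in the levels of Col5a1 and Col5a2 was not tested. NA1b, with the highest Col5a3, had 0.997 of Dcn and a fibroblast sum of 1.68.

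In all, 10 neurons had both Col5a1 and Col5a2, of which 5 were in Ach1 and 4 in NA3. Col5a2 was found in 27.8% of neurons with Col5a1 and in 4.26% of those without it. Within NA3 the shares were 28.6% and 35.3%, and within Ach1 83.3% (5 of 6 neurons) and 10.3%. Col5a3 was found in 31 of 36 neurons with Col5a1 (86.1%), against 74.8% of the others, and in 56 of 64 with Col5a2 (87.5%), against 74.5%. These shares follow depth as well, since neurons with Col5a3 had a median of 4659 UMIs and those without it 2340.

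Among all collagens, Col5a3 had the highest level of 43 measured chains in each of the 8 subtypes. It made up 92.8% of collagen UMIs per 10000 in NA1b, 79.5% in NA1a and 75.2% in NA1c. The share was 55.6% in NA2, 56.7% in Ach2, 47.0% in Glut, 40.8% in NA3 and 24.5% in Ach1. In Glut the rank and the share of Col5a3 rest on 1 of 37 neurons, which had 8 UMIs. The next chain was Col16a1, of a fibril-associated collagen, at 0.343 in NA1b, and Col23a1, of a transmembrane collagen, at 0.628 in NA1a and 1.17 in NA1c. In NA3 and Ach1 the next was Col1a2, the α2 chain of type I collagen, at 2.04 and 3.03, and in Ach2 it was Col4a1, of basement membranes, at 2.56. The 8 fibrillar chains other than type V summed to 1.03 in NA1b and to 7.45 in Ach1. The 33 genes for collagen folding and processing summed to 8.60 in NA1b, 9.25 in NA1a and 5.07 in NA2, a narrower range than that of Col5a3. The 14 measured genes of laminins and basement membrane summed to 2.36 in NA1b and 0.284 in NA2.

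The genes whose levels were most like those of Col5a3 were found over 26 profiles, each a mouse and subtype, among 5493 genes, by Pearson's correlation of log2 levels. They were Miat (r = 0.948), Safb2 (0.931), Pnisr (0.929), Bicral (0.928) and Srrm2 (0.927). Miat is a long noncoding RNA of the nucleus, and Safb2, Pnisr and Srrm2 encode nuclear proteins, Srrm2 one of splicing speckles. Meg3 and Malat1, long noncoding RNAs that also stay in the nucleus, had r = 0.921 and 0.888, and Casz1 and Kcnt1, a transcription factor and a potassium channel by which the study marks subtypes, had r = 0.910 and 0.853. Profiles of 1 mouse share a library and those of 1 subtype share neurons of 1 type, so these values describe the 26 points and carry no p-value. The 5 NA2 profiles lie apart from the rest. Over the 21 other profiles r was 0.787 for Miat, 0.860 for Casz1 and 0.812 for Kcnt1, but 0.655 for Bicral, 0.636 for Meg3 and 0.410 for Malat1, so the likeness to the last of these rested largely on NA2.

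The subtypes also differed in nuclear and mitochondrial RNA. Malat1 stood at 834 UMIs per 10000 in NA1a, 757 in Ach2, 749 in NA3 and 723 in NA1b, but at 258 in Ach1, 131 in Glut and 72.2 in NA2. Meg3 was 499 in NA1b, 277 in NA1a and 13.7 in NA2. Miat was 11.9 in NA1b, 7.14 in NA1c, 4.57 in NA1a and 0.233 in NA2. The mitochondrial share of UMIs was 3.15% in NA1a, 3.55% in NA1c, 4.06% in NA1b, 6.90% in NA2, 8.11% in Ach1 and 8.87% in Glut, and over the 26 profiles it had r = -0.527 with Col5a3. The part of RNA quality or of the nuclear share of RNA in the level of Col5a3 was not tested.

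**Figure D3:**
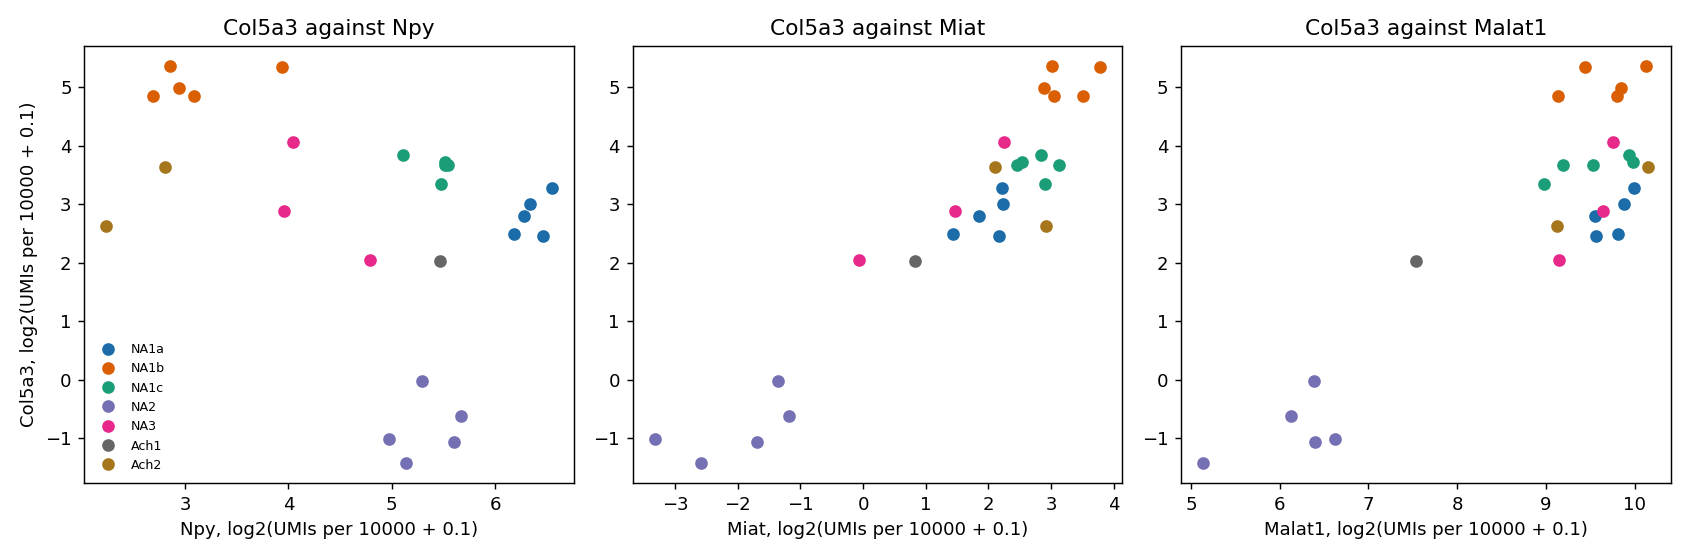
Level of Col5a3 against the levels of Npy, Miat and Malat1 (log2 of UMIs per 10000 plus 0.1) in 26 profiles of a mouse and subtype, coloured by subtype. Col5a3 follows Miat (r = 0.948, and 0.787 without NA2), and the NA2 profiles lie low for Col5a3, Miat and Malat1 together.

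The other chains resembled different genes. For Col5a2 they included Scd1 (r = 0.907), Igfbp7 (0.899), Gsn (0.875) and Adamts5 (0.870), of which Gsn encodes the actin-severing protein gelsolin and Adamts5 a protease that cuts matrix proteoglycans. For Col5a1 they were Cyr61 (0.869), Zeb2 (0.813), Abca8a (0.794), Ier2 (0.782) and Hspa1b (0.779). Dcn had r = 0.808 with Col5a2 and 0.747 with Col5a1. Col5a1 and Col5a2 had r = 0.609 with each other, while Col5a3 had r = 0.378 with Col5a1 and 0.066 with Col5a2. Both low chains are near 0 in most profiles, so their values rest on the few profiles of NA3 and Ach1.

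Col5a3 and Npy, the peptide co-transmitter by which the study divides sympathetic neurons, ran in opposite directions over neurons of NA1a, NA1b and NA3. Over neurons with a UMI of both genes, Pearson's r was -0.525, -0.663, -0.498, -0.746 and -0.471 in mice 1 to 5 (74, 128, 75, 78 and 78 neurons), a mean of -0.580 ± 0.118 (SD, n = 5). Centred on the subtype, it was -0.246 ± 0.219, so less than the pooled value was left once the levels of the subtypes were taken out. Within NA1b it was -0.084 ± 0.348, which turned sign without mouse 2 (0.032) and was -0.354 ± 0.263 as a partial correlation given log UMIs. Within NA1a it was -0.236 ± 0.261. Within NA3 it was -0.487 ± 0.073 (SD, n = 3), and -0.244 ± 0.287 with Spearman's rho. Within NA1c, which is not in the pooled set, it was -0.288 ± 0.123. The neurons of a mouse share a library, and no p-value is given.

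Reporter transcripts marked few neurons. GFP, from the heart, was found in 6 neurons, of which 5 had Col5a3, 1 Col5a1 and 1 Col5a2. TdTomato, from the front paws, was found in 20, of which 16 had Col5a3, 2 Col5a2 and none Col5a1. In NA1b the median level of Col5a3 was 49.0 over 3 neurons with GFP, 36.3 over 11 with tdTomato and 30.6 over 298 with neither, and the range of the 3, from 23.1 to 93.6, includes the medians of the others. The 2 reporter groups of NA1b share a neuron, since the subtype holds 311 neurons. The study reports no neuron labelled from both organs.

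Within each NA1 subtype Col5a3 also varied from neuron to neuron, and this variation was not used to choose the gene. The subtypes themselves were clustered on the RNA of these same cells. The place of a neuron between subtypes can therefore enter a split by Col5a3, and its part was not tested. Since nearly all NA1b neurons had the transcript, neurons of a mouse above that mouse's median level of Col5a3 were compared with the rest, within NA1a, NA1b and NA1c. Levels of all other genes in the upper and lower neurons of the same mouse were fitted as log2 of UMIs per 10000 plus 0.1 in limma with the mouse as a block, and a gene was called where its p, adjusted by Benjamini and Hochberg, was under 0.05. The comparison asks which genes differ between neurons of 1 subtype that hold more or less of the chain.

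In NA1a, 24 of 3829 genes (0.627%) were called, 2 higher (0.0522%) and 22 lower (0.575%) in the neurons with more Col5a3. Cntn5 (contactin 5), a cell adhesion molecule of axons, is a gene by which the study marks NA1a. Pooled over neurons it stood at 3.06 UMIs per 10000 in NA1a and 0.556 in NA1b. Within NA1a it had 0.544, 1.10, 1.29, 0.0982 and 2.06 in the upper neurons of mice 1 to 5 and 5.01, 4.21, 3.58, 2.24 and 4.36 in the lower ones. Every upper value was below every lower value. The means were 1.02 ± 0.747 and 3.88 ± 1.05 (SD, n = 5), a log2 difference of -2.17 ± 0.27 (SE, limma adjusted p = 1.01e-05), lower in 5 of 5 mice. A UMI of Cntn5 was found in 18 of 90 upper neurons (20.0%) and in 48 of 92 lower neurons (52.2%).

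Tmc3, a member of the transmembrane channel-like family, followed. It had 0.517, 0.556, 0.772, 0.713 and 1.04 in the upper and 1.35, 2.25, 1.84, 4.14 and 2.75 in the lower neurons, again with no overlap, for a log2 difference of -1.59 (limma adjusted p = 0.000112). Itgb1, the integrin β1 subunit that forms the collagen receptors of the integrin family, had 0.651, 0.940, 0.752, 1.21 and 2.20 in the upper and 1.79, 2.66, 3.08, 3.10 and 4.49 in the lower neurons. The groups of Itgb1 overlapped only through the upper neurons of mouse 5 and the lower neurons of mouse 1, and within each mouse the upper neurons were lower, for a log2 difference of -1.38 ± 0.21 (SE, limma adjusted p = 0.000112). Brinp1 (log2 difference -1.53, adjusted p = 0.0333) and Myl1 (-1.11, adjusted p = 0.0490), a neuronal protein and a myosin light chain, were also called lower. Each of these 2 calls was kept in only 4 alternatives (adjusted p = 0.0130 to 0.380 and 0.0238 to 0.519), and both were lost without mouse 1, 2 or 3, Brinp1 also without mouse 4 and Myl1 without mouse 5. Cntn5 (adjusted p at most 0.0181) and Tmc3 were called whichever mouse was left out.

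The genes called higher were Casz1 and Miat, both of which also follow Col5a3 over the subtypes. Pooled over neurons, Casz1 stood at 4.77 in NA1b and 1.87 in NA1a. Casz1 had 2.07, 1.97, 1.95, 1.80 and 2.14 in the upper and 0.633, 1.67, 0.919, 1.28 and 0.528 in the lower neurons, with no overlap, a log2 difference of 1.02 (limma adjusted p = 0.0496). Miat had a log2 difference of 0.82 (adjusted p = 0.0370). Both calls were lost without mouse 3, 4 or 5, and that of Casz1 also without mouse 1 (adjusted p = 0.0132 to 0.378 for Casz1 and 0.00381 to 0.516 for Miat over all alternatives). Npy, in contrast, had a log2 difference of -0.15 within NA1a (adjusted p = 0.676), and Kcnt1 one of 0.67 that was not called.

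Mitochondrial transcripts made up much of the rest. Of 13 mitochondrial genes, a list counted after its values were seen, 10 were called lower in the upper neurons of NA1a, and their median log2 difference was -0.98, against 0.04 over all genes tested. In NA1b and NA1c all 13 also had a negative difference, with medians of -0.69 and -0.40, and none was called. Cytochrome b (mt-Cytb) stood at a mean of 24.6 in the upper and 51.7 in the lower neurons, a log2 difference of -1.09. The mitochondrial share of UMIs was 2.39, 1.63, 1.64, 2.28 and 4.38% in the upper and 3.78, 2.42, 5.62, 4.25 and 8.49% in the lower neurons of mice 1 to 5, lower in each mouse. With UMIs of genes of the nuclear genome alone as the base, 6 genes were called, against 14 of that genome among the 24. Among the others called lower were Ctsd (cathepsin D), Hspa5 and Hsp90b1 (chaperones). The part of the mitochondrial share in these differences was not tested.

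Among the neurons of the 3 mice that did not enter the test, differences of the same sign but unequal size were seen for most of these genes. Over 67 NA1a neurons above and 67 at or below their pooled median of Col5a3, Tmc3 was 0.615 against 1.87 and Brinp1 0.160 against 0.605. Casz1 was 3.40 against 1.41. Npy was 31.6 against 51.6, a log2 difference of -0.71, where the matched mice had -0.15. Cntn5, at 3.48 against 4.51, and Itgb1, at 1.23 against 1.56, differed by less than in the matched mice (log2 differences of -0.37 and -0.31). So did mt-Cytb (-0.20) and Miat (0.12), and Sctr, the secretin receptor, went the other way (-0.14, against 0.59 in the matched mice, adjusted p = 0.0769). The median was set over 3 mouse names together, so differences between mice enter this split, and no test was made.

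**Figure D4:**
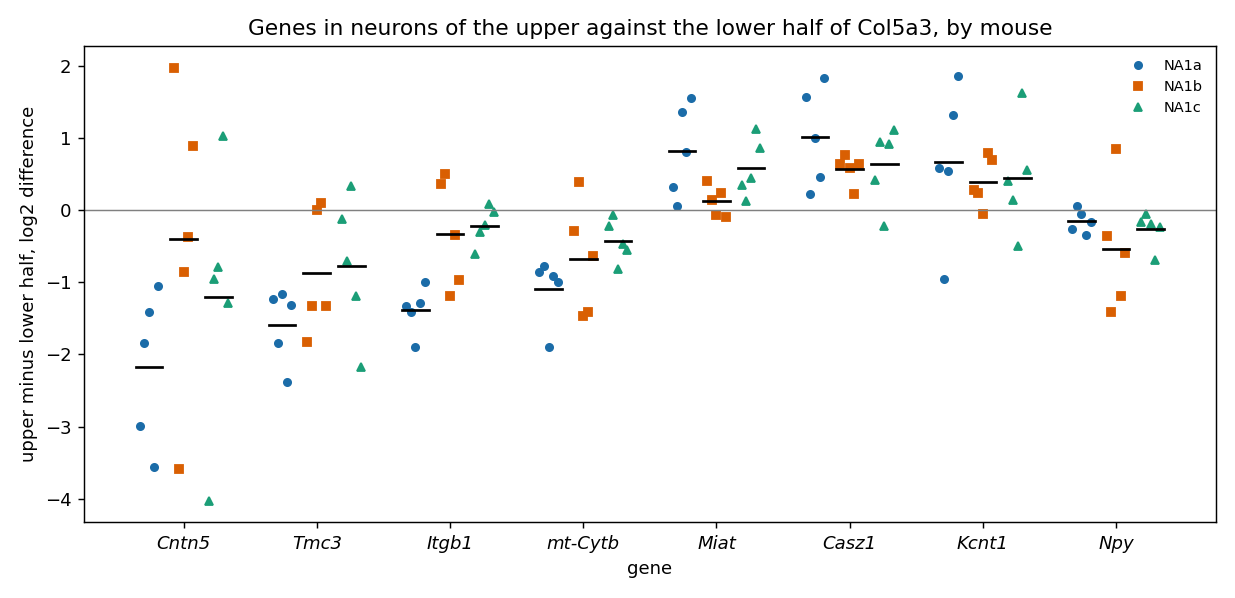
Log2 difference in level (upper minus lower neurons by Col5a3) of 8 genes in NA1a, NA1b and NA1c, with 1 point per mouse and a bar at the mean. Cntn5, Tmc3, Itgb1 and mt-Cytb lie below 0 in each of 5 mice in NA1a, with means of -2.17, -1.59, -1.38 and -1.09. In NA1b each of these 4 genes has mice on both sides of 0, and Cntn5 and Tmc3 were too low there to be tested.

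In NA1b and NA1c no gene was called by limma, of 3892 and 3947 tested (0.0% each), where 309 and 249 genes had an unadjusted p under 0.05. Without mouse 2, 13 genes were called in NA1b, and without mouse 1, 1 gene. Casz1 was higher in the upper neurons of NA1b in 5 of 5 mice (log2 difference 0.57, adjusted p = 0.334). In NA1c, Sctr, a gene by which the study marks subtypes, was higher in 5 of 5 mice (0.70, adjusted p = 0.264). Whether the difference itself changed between subtypes was tested with an interaction term, and no gene was called between NA1a and NA1b, NA1a and NA1c or NA1b and NA1c (3318, 3324 and 3422 genes, with 181, 184 and 170 at an unadjusted p under 0.05 in limma). For Itgb1 the difference between NA1a and NA1b was -1.06 (adjusted p = 0.814). Cntn5 and Tmc3 were not in the test of NA1a and NA1b, since they did not pass the filter on low levels in NA1b. There Cntn5 was at 0.164 in the upper and 0.369 in the lower neurons, and Tmc3 at 0.0994 and 0.245. Between NA1a and NA1c their differences were -0.97 and -0.82 (limma adjusted p = 0.885 and 0.876). The genes called in NA1a are therefore not shown to be particular to it.

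Genes of collagen chains, collagen folding and collagen receptors were followed as lists in NA1a, where 0.627% of all genes were called. Of 33 genes for collagen folding and processing, 7 passed the filter on low levels in NA1a and none was called, with a median log2 difference of 0.09. P4ha1, a prolyl 4-hydroxylase subunit that stabilizes the collagen helix, had 0.55. Of 19 measured collagen receptors and heparan sulfate proteoglycans, 3 passed the filter and 1 was called, Itgb1, while Itga1, a collagen-binding α subunit, had 0.41 (adjusted p = 0.387). Of the fibrillar chains other than type V none passed the filter. Col23a1 was the only other collagen chain that did, with 1.21 (adjusted p = 0.226), higher in 5 of 5 mice. In NA1c it had 0.87, also higher in 5 of 5 mice (adjusted p = 0.770).

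The last comparison set neurons with a chain against neurons without it, for each of the 3 chains in the same way, at the same subtype make-up and with neurons matched in 2 classes of depth. Neurons with a chain entered only where their subtype and depth class also held a neuron without it. For Col5a3, 66, 136, 79, 64 and 102 neurons with it entered in mice 1 to 5, and 45, 19, 49, 58 and 35 without it. The latter were weighted to the make-up of the former, so 1 neuron could stand for a class. In NA1b, 93 of 94 neurons of mouse 2, 30 of 31 of mouse 3 and 32 of 33 of mouse 4 had Col5a3. For Col5a3, 22 of 3736 genes (0.589%) were called, 13 higher (0.348%) and 9 lower (0.241%). Higher were Lyst (log2 difference 2.26) and Unc13a (1.81), a gene of lysosomal traffic and one of synaptic vesicle priming, along with Stx1a, Cacna1a, Meg3 and Miat (1.27, limma adjusted p = 0.00439). Lower were Cartpt (-2.35), a peptide precursor, Map1b, Akap12 and 5 mitochondrial genes. Akap12 stood at -1.21, and at -0.05 (adjusted p = 0.948) when neurons were split on thinned UMIs. Vip (vasoactive intestinal peptide) was called lower at -1.85 (adjusted p = 0.00019), but without the neurons with a shared barcode it stood at 0.05 (adjusted p = 0.986). This count depends on single mice: it was 0 without mouse 5, 1 without mouse 4, 11 without mouse 1 and 12 without mouse 3. The median log2 difference over all genes was 0.24, and each value is to be read against it.

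For Col5a1, 3 mice entered with at least 5 neurons with it, namely 7, 7 and 8 neurons in mice 2, 4 and 5. There 1 of 4003 genes (0.025%) was called by limma, where 201 had an unadjusted p under 0.05. It was Dcn, at 6.03, 69.1 and 10.6 UMIs per 10000 in neurons with Col5a1 and 4.68, 12.4 and 2.92 in those without it (mice 2, 4 and 5), a log2 difference of 1.55 ± 0.24 (SE, limma adjusted p = 8.03e-07). Neurons with Col5a1 were higher in 3 of 3 mice, but mouse 4 carries most of the level, and without it the difference was 1.09 (adjusted p = 0.534). All 5 fibroblast markers that passed the filter had a positive difference, with a median of 0.54 against -0.09 over all genes, but this too rests largely on mouse 4. Col1a2, the median gene, was 6.31 with and 1.43 without Col5a1 in mouse 4, and lower with it in mice 2 and 5 (1.47 against 1.89 and 0.689 against 0.756). Col5a3 was 10.7 in neurons with Col5a1 and 12.2 in those without it (adjusted p = 0.917).

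For Col5a2, 4 mice entered, with 8, 15, 15 and 13 neurons with it in mice 1, 2, 4 and 5. There limma called no gene of 3823 (0.0%), where 228 had an unadjusted p under 0.05. Without mouse 1, 1 gene was called, without mouse 4, 2 genes and without mouse 5, 4 genes. Dcn was 4.98, 7.43, 51.7 and 12.999 with and 6.96, 4.27, 15.5 and 3.66 without Col5a2 (mice 1, 2, 4 and 5), a log2 difference of 0.96 (adjusted p = 0.267), higher in 3 of 4 mice. Of 4 fibroblast markers tested 3 had a positive difference, with a median of 0.97 against -0.09 over all genes. Col5a3 had a log2 difference of -0.61 (adjusted p = 0.548), lower in 4 of 4 mice. The log2 differences of Dcn in neurons with Col5a1 and with Col5a2 are thus both positive, but only the first passed the test, and the difference between them was not tested.

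**Figure D5:**
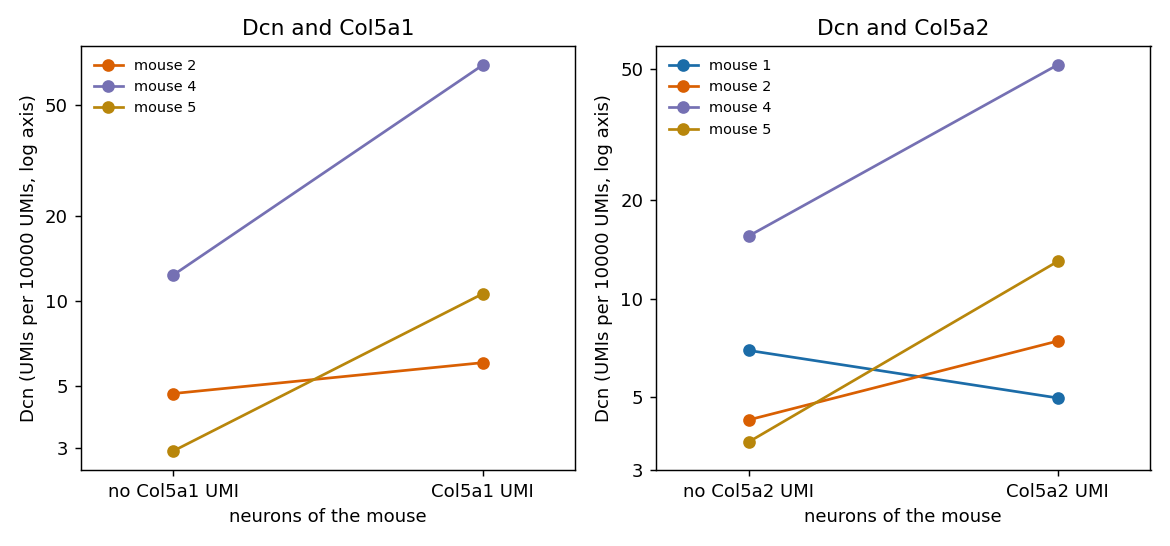
Level of Dcn (UMIs per 10000, log axis) in neurons without and with Col5a1 and without and with Col5a2, with a line for each mouse. All 3 lines rise for Col5a1, with mouse 4 going from 12.4 to 69.1, and 3 of 4 rise for Col5a2.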

How the data were processed

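Single cells of stellate ganglia were captured with the 10x Chromium system. The authors aligned reads with Cell Ranger 2.1.1 to GRCm38 with GFP added, applied limits of 500 to 6000 genes, 20000 UMIs and 15% mitochondrial RNA per cell, and clustered cells in Seurat. No doublet step is described or was applied. The deposited unit is the natural log of UMIs per 10000 with 1 added. UMIs were recovered from them, and 100% of nonzero values were whole within 0.01. The subtypes are the authors' own.

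Means of UMIs per 10000 were taken for each mouse and group. Tests were two-sided and used limma 3.58.1 (R 4.3.3) with an intensity trend on log2 means with a pseudocount of 0.1. The interaction test was fitted to the differences of each mouse without that trend. Genes entered that reached a mean of 0.5 in no fewer profiles than there were mice, without the chain that set the groups. A mouse entered with at least 5 neurons on each side of the median, or with at least 5 neurons with the chain in the last comparison. The mouse was a block because both profiles come from 1 animal, and the deviations of the profiles of a mouse from their group means had r = 0.062 to 0.423. The variance behind each p-value was moderated by limma toward a value shared over genes. P-values therefore do not measure the spread of a gene between mice alone. For Cntn5 in NA1a the differences of the 5 mice had an SD of 1.07, and the SE from limma was 0.27. The mice tested were of batch 2. Batch 1 was not tested.

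The members and gene lists were chosen with earlier results of these data known. Named genes are the chains, the study's subtype genes, the 5 genes most like each chain, up to 10 called genes each way whose sign was shared by all mice, and list members with the 3 smallest p or 3 highest levels. Some genes that this rule gives are not reported here. NA1b neurons with and without Col5a3 were to be compared, but after thinning 1 to 3 neurons per mouse lacked it, so the comparison around the median of Col5a3 was added after seeing the data. Thinning kept the 1073 neurons with at least 2000 UMIs. The limit for a count of 0 is 3 neurons of the total. Alternatives covered the pseudocount, filter, block, thinning, strata, nuclear genes and each mouse or shared barcodes left out. The steps were tested on simulated data. Analysis used Python 3.11.15, NumPy 2.4.6, pandas 2.3.3, SciPy 1.17.1 and matplotlib 3.10.9.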

Additional observations from a re-analysis of the deposited data

Results flagged for a closer look

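Of 57 groups of 5 mice checked for a mouse far from the others, 5 had one, and chance marks about 1 in 20. The level of Col5a2 in NA2 was 0.113 UMIs per 10000 in mouse 4, where the next highest was 0.0212. The share of NA1c neurons with Col5a3 was 73.7% in mouse 1, below the next value of 89.1%. The share of NA2 neurons with Col5a3 was 35.3% in mouse 5, above the next of 12.2%, and the NA2 neurons of mouse 5 had a median of 4864 UMIs, the highest of the 5 mice. In NA1a of mouse 3, the log2 differences between the upper and lower neurons by Col5a3 were -1.89 for mt-Cytb and -2.18 for mt-Nd1, each below the other 4 mice, and the same mouse had mitochondrial shares of 1.64% and 5.62% in these neurons. The part of depth and of mitochondrial RNA in these values was not tested.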

How the results depend on the processing

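The mean level of Col5a3 in NA1b (34.2), its share of neurons there and the mean level of Col5a2 in NA3 moved by less than 1 SD over mice in every alternative run. Thinning to 2000 UMIs gave 0.469 for Col5a1 in NA3 (0.247 otherwise) and 13.02% for the share with Col5a2 in NA3 (36.8% over mice otherwise). The correlation of Col5a3 and Npy was -0.246 after centring on the subtype, and within NA1b it turned to 0.038 with Spearman's rho and to 0.032 without mouse 2 (-0.189 to 0.032 without 1 mouse), while given log UMIs it was -0.354 and with zeros included -0.170. The replicate block decided many calls: without the pairing by mouse, 2 genes in place of 24 were called around the median of Col5a3 in NA1a, 0 in place of 22 for neurons with Col5a3 and 0 in place of 1 for Col5a1. In NA1a the count was 12 with no filter, 5 with the median set on thinned UMIs, 6 with genes of the nuclear genome alone (14 of these are among the 24) and 14 to 28 without 1 mouse (14 without mouse 3 or mouse 4). Cntn5 and Tmc3 were called in 12 of 12 alternatives and Itgb1 in 10 of 12, with adjusted p = 0.0582 without the block and 0.0835 with thinned UMIs. In NA1b the count was 2 with thinned UMIs and 0 to 13 without 1 mouse. For neurons with Col5a3 it was 0 with no filter, 1 with a mean of at least 1, 9 without shared barcodes and 0 to 28 without 1 mouse, and Vip turned to 0.0503 without shared barcodes. For Col5a1 it was 2 with strata of subtype only and 0 to 4 without 1 mouse, and for Col5a2 1 with a pseudocount of 1 and 0 to 4 without 1 mouse. The cause was not tested. Of 387 values of named genes under alternatives, 186 kept their call, 200 kept the direction and lost it, and 1 turned. The planned comparison within NA1b could not be given, nor could thinned splits and NA1 neurons alone for Col5a1 and Col5a2, since too few neurons remained.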
